A study of Mus musculus with 12 samples.

Results

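The 10 genes described here encode NFAT transcription factors and the calcium entry and calcineurin proteins that act ahead of them. They were taken by symbol from a table of 50674 genes and are Nfatc1, Nfatc2, Nfatc3, Nfat5, Rcan1, Ppp3ca, Ppp3cb, Orai1, Stim1 and Stim2. All 10 were among the 17457 genes that passed a filter on low counts and were tested. RNA was measured in natural killer (NK) cells, cytotoxic lymphocytes expanded from mouse spleen with IL-2. The groups are Mirc11-/- cells after 6 h of stimulation of NKG2D, an activating receptor, Mirc11-/- cells left untreated, wild-type cells stimulated in the same way and wild-type cells left untreated. Mirc11 is the cluster of microRNA genes for miR-23a, miR-27a and miR-24-2, all groups carry the C57BL/6 strain label, and each group has 3 libraries that the design text calls biological replicates. The labels do not say how many mice each library came from, and they give no batch.

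Store-operated calcium entry begins when receptor signalling empties the calcium store of the endoplasmic reticulum. STIM proteins sense the loss and open ORAI channels in the plasma membrane. The calcium that enters binds calmodulin and activates the phosphatase calcineurin, which removes phosphates from NFAT proteins and lets them enter the nucleus. In lymphocytes NFAT then acts with AP-1 on cytokine genes, and kinases such as GSK3 and DYRK return NFAT to the cytoplasm.

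These are bulk libraries, so fewer cells of a type and less RNA per cell cannot be told apart. Library totals ran from 15139281 to 25342991 counts. Levels are CPM, counts scaled to the size of each library, and changes are log2 fold changes from a model fitted to all tested genes. All 10 NK markers examined were detected in every group, and their summed level was 4689 to 7285 CPM in stimulated Mirc11-/- libraries, 12150 to 13180 CPM in unstimulated Mirc11-/- libraries, 8155 to 9530 CPM in stimulated wild-type libraries and 11220 to 13500 CPM in unstimulated wild-type libraries. Most of the difference lay in Gzmb (means of 3150 and 7444 CPM in stimulated and unstimulated Mirc11-/- cells, 4452 and 6392 CPM in wild-type cells) and in Prf1. Ncr1, Klrb1c, Eomes and Itga2 also had lower means with stimulation in both genotypes. Klrk1, Tbx21 and Klre1 had higher ones, and Il2rb was lower in Mirc11-/- and slightly higher in wild-type cells. Mir27a had 0 counts in each of the 6 Mirc11-/- libraries and 0 to 4 counts in the wild-type libraries, and Mir23a and Mir24-2 had 0 or 1 count in every library.

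The microRNAs of the deleted cluster pair with messages mainly through their seed, bases 2 to 8, and the sequences are shown because the genotype comparison asks what loss of the cluster does. Mature miR-24-3p is also made from another locus, and miR-23b and miR-27b, from a related cluster, share the seeds of miR-23a and miR-27a. Capitals mark the seed in the mature sequences below, which are from RefSeq on GRCm38.p6. In the target sites they mark the 7 bases that pair with the seed.
miR-23a-3p: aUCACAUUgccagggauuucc
miR-27a-3p: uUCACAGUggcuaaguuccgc
miR-24-3p: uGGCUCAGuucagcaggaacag
Nfat5 site for miR-23a-3p: tccttaattaAATGTGAcaaagtag
Nfat5 site for miR-27a-3p: acctaaataaACTGTGAactacatt
Stim2 site for miR-27a-3p: cagggctttcACTGTGAtttactgc

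The sites lie in the longest annotated 3' untranslated region of each gene in GENCODE vM21 (GRCm38). In Nfat5 the miR-23a match is at chr8:107376775-107376781 on the plus strand, base 5624 of a region of 8365 bases, and the miR-27a match is at chr8:107374457-107374463, base 3306. The Stim2 match is at chr5:54119457-54119463 on the plus strand, base 708 of 2308. Nfatc1 also holds 1 match to the miR-27a seed, so 3 of the 10 genes hold a 7-base match to any of the 3 seeds. Among 12807 tested genes with such a region the share was 41.6%, and the median region was 2323 bases long in the 10 genes and 1224 bases long in all of these genes. None of the 10 genes held a 7-base match to the miR-24 seed. A match is a description of the sequence and not a measured site.

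Stimulation changed the same 5 of the 10 genes in both genotypes, each in the same direction. Orai1, Stim1 and Stim2 rose and Nfatc2 and Ppp3cb fell, in Mirc11-/- and in wild-type cells. Across all tested genes 23.5% rose and 22.1% fell in Mirc11-/- cells, and 16.1% rose and 15.7% fell in wild-type cells (adjusted p under 0.05). A share of members near such a background is not a result about the members, and 3 higher and 2 lower of 10 are not far from it. What follows therefore rests on the single genes. The median change of the 10 genes was 0.15 log2 in Mirc11-/- and 0.11 log2 in wild-type cells, beside 0.032 and 0.021 log2 over all tested genes.

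**Figure D1:**
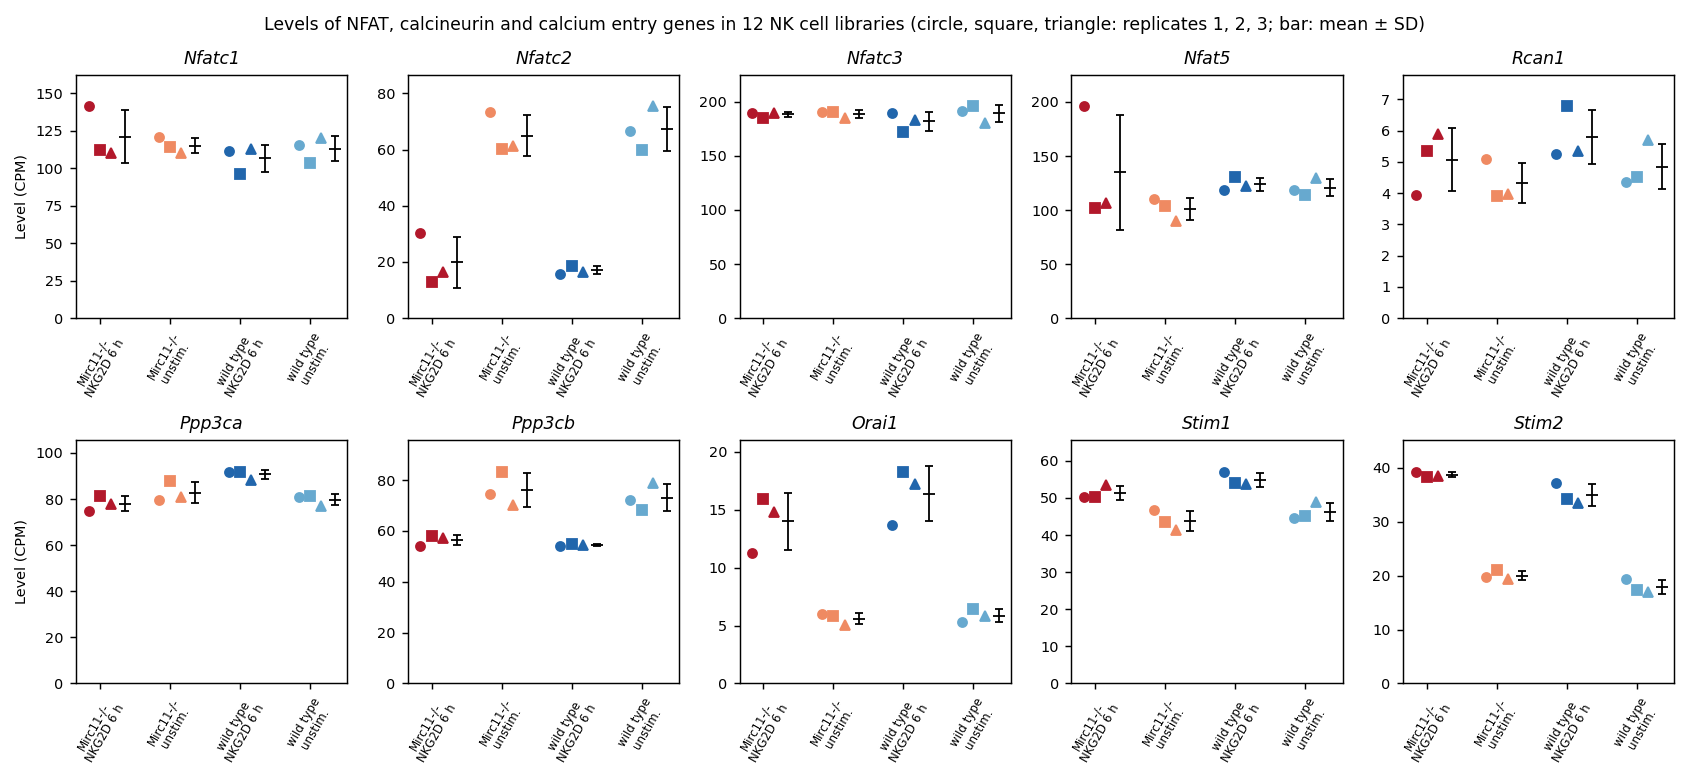
Level of each of the 10 genes in CPM in every library; colour and position give the group, circle, square and triangle give replicates 1, 2 and 3, and the black bar is the group mean ± SD of 3 libraries. Nfatc2 and Ppp3cb sit lower and Orai1, Stim1 and Stim2 sit higher in both stimulated groups, and replicate 1 of the stimulated Mirc11-/- group stands apart for Nfat5 (196.0 CPM) and Nfatc2 (30.1 CPM).

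Of the calcium entry genes, Orai1 and Stim2 showed the larger rises and Stim1 a small one. Orai1 (ENSMUSG00000049686, chr5:123015074-123030456) encodes the pore subunit of the calcium release-activated channel. Its level was 11.2, 15.96 and 14.8 CPM in stimulated Mirc11-/- libraries, against 5.96, 5.80 and 5.04 CPM in unstimulated Mirc11-/- libraries. Wild-type libraries had 13.7, 18.3 and 17.2 CPM with stimulation, against 5.30, 6.43 and 5.81 CPM without. Every stimulated library lay above every unstimulated one. The change was 1.32 ± 0.16 log2 (SE; 2.50-fold, adjusted p = 2.55e-05) in Mirc11-/- cells and 1.49 ± 0.15 log2 (2.81-fold, adjusted p = 1.15e-05) in wild-type cells. An antisense gene model that shares exon sequence with Orai1, Gm2479, had 0 to 2 counts per library; whether counting used strand is not given in the sources used here.

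Stim2 (ENSMUSG00000039156, chr5:53998499-54121057) encodes the store sensor that responds to small losses of calcium and helps set the resting calcium level. Stim2 stood at 39.3, 38.4 and 38.5 CPM in stimulated Mirc11-/- libraries, against 19.7, 21.0 and 19.3 CPM in unstimulated Mirc11-/- libraries. In wild-type cells the values were 37.3, 34.2 and 33.5 CPM with stimulation, against 19.3, 17.4 and 16.9 CPM without. The stimulated and unstimulated groups did not overlap, and the spread within each group was a small part of the gap. Stim2 rose by 0.95 ± 0.083 log2 in Mirc11-/- cells (1.94-fold, adjusted p = 1.53e-06) and by 0.97 ± 0.082 log2 in wild-type cells (1.96-fold, adjusted p = 1.99e-06).

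Stim1 (ENSMUSG00000030987, chr7:102267806-102437319) encodes the sensor that opens ORAI1 after a full emptying of the store, and its change was the smallest that passed the test. The level was 50.2, 50.3 and 53.5 CPM in stimulated Mirc11-/- libraries, against 46.7, 43.6 and 41.4 CPM in unstimulated Mirc11-/- libraries. In wild-type cells it was 57.1, 53.9 and 53.8 CPM with stimulation, against 44.6, 45.2 and 49.0 CPM without. Groups did not overlap in either genotype, but the rise was only 0.23 ± 0.076 log2 in Mirc11-/- cells (1.17-fold, adjusted p = 0.0261) and 0.25 ± 0.075 log2 in wild-type cells (1.19-fold, adjusted p = 0.0228). This call was lost in 7 of 17 alternative settings in each genotype, among them leaving out replicate 2 or 3 of either Mirc11-/- group (adjusted p = 0.0526 to 0.143), replicate 1 or 3 of stimulated wild-type cells (0.0932 and 0.0521) and replicate 1 or 2 of unstimulated wild-type cells (0.107 and 0.0787).

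The balance of the store sensors differed between treatments. Per kilobase of exon, Stim2 over Stim1 was 1.58, 1.54 and 1.46 in stimulated Mirc11-/- libraries, against 0.853, 0.974 and 0.944 in unstimulated Mirc11-/- libraries. In wild-type libraries it was 1.32, 1.28 and 1.26 with stimulation, against 0.876, 0.777 and 0.696 without. Per kilobase of merged exon, Stim1 stood higher in all 6 unstimulated libraries and Stim2 in all 6 stimulated ones. That order depends on the exon lengths used, 10.37 kb for Stim1 and 5.133 kb for Stim2. In counts not divided by length, Stim2 over Stim1 ran from 0.344 to 0.783, with more Stim1 counts in every library. Which message is the more abundant is thus not settled here, while the ratio was higher with stimulation either way.

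Of the calcineurin genes among the 10, Ppp3cb fell, and Ppp3ca and the inhibitor Rcan1 did not pass the test. Ppp3cb (ENSMUSG00000021816, chr14:20499364-20546573) encodes the beta isoform of the catalytic subunit. Its level was 54.1, 58.0 and 57.4 CPM in stimulated Mirc11-/- libraries, against 74.6, 83.4 and 70.3 CPM in unstimulated Mirc11-/- libraries. Wild-type libraries had 54.2, 54.8 and 54.3 CPM with stimulation, against 72.1, 68.4 and 79.0 CPM without. No stimulated library reached the lowest unstimulated one. Ppp3cb fell by 0.43 ± 0.083 log2 (1.35-fold) in each genotype, with adjusted p = 0.000952 in Mirc11-/- and 0.00150 in wild-type cells.

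Ppp3ca (ENSMUSG00000028161, chr3:136670124-136937727) encodes the alpha isoform of the catalytic subunit and passed the test in neither genotype. Its level was 74.7, 81.2 and 77.9 CPM in stimulated Mirc11-/- libraries, against 79.6, 87.9 and 81.1 CPM in unstimulated Mirc11-/- libraries, groups that overlap. In wild-type cells it was 91.8, 91.9 and 88.3 CPM with stimulation, against 81.1, 81.2 and 77.0 CPM without, groups that do not overlap. The change was -0.088 ± 0.072 log2 in Mirc11-/- cells (adjusted p = 0.334) and 0.19 ± 0.071 log2 in wild-type cells (adjusted p = 0.0625). The wild-type value passed it with a stricter filter (adjusted p = 0.0170) and in DESeq2 (adjusted p = 0.0360). Per kilobase, Ppp3cb over Ppp3ca was 0.822 ± 0.013 in stimulated and 1.04 ± 0.050 in unstimulated Mirc11-/- cells, and 0.680 ± 0.015 in stimulated and 1.04 ± 0.11 in unstimulated wild-type cells (SD, n = 3 each).

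**Figure D2:**
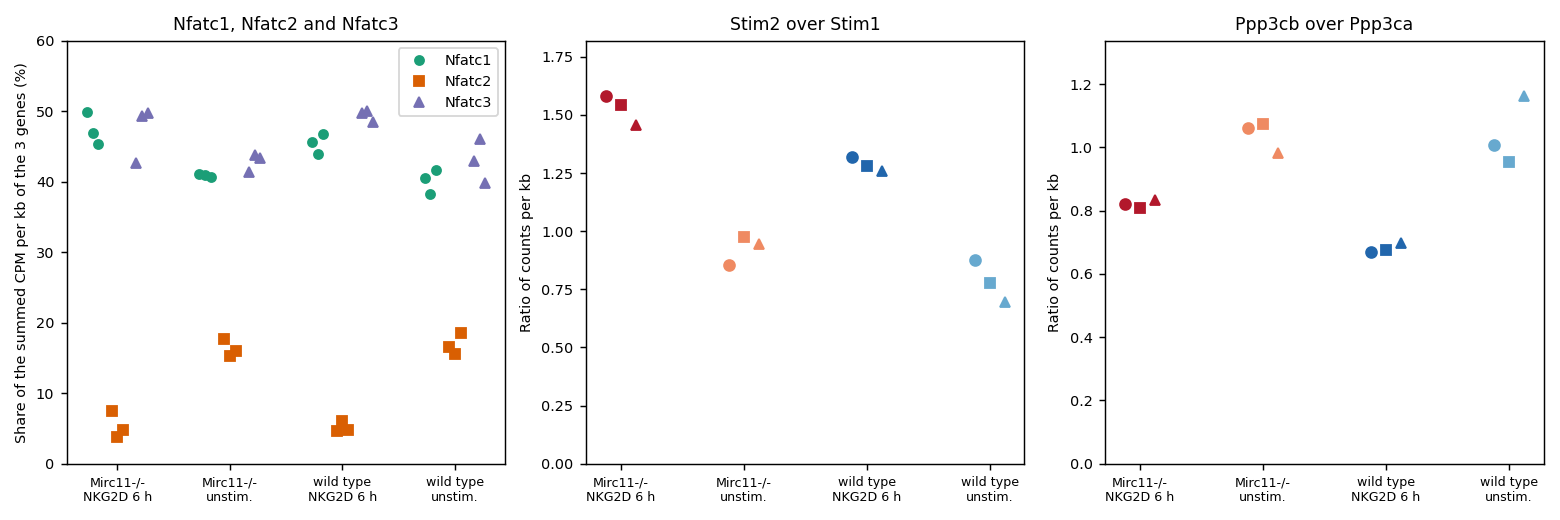
Left, the share in percent of the summed CPM per kilobase of Nfatc1, Nfatc2 and Nfatc3 that each gene takes in every library; middle and right, the ratios Stim2 over Stim1 and Ppp3cb over Ppp3ca per kilobase, with 1 point per library and symbols for replicates 1, 2 and 3. The Nfatc2 share averages 5.36% and 5.15% in the stimulated Mirc11-/- and wild-type groups and 16.3% and 16.9% in the unstimulated ones, and stimulated and unstimulated libraries of a genotype do not overlap in any of the measures except the Nfatc3 share in Mirc11-/- cells.

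Rcan1 (ENSMUSG00000022951, chr16:92391953-92470867) encodes an inhibitor of calcineurin, and in several cell types NFAT itself drives one of its promoters, which makes it a common readout of calcineurin activity. It was the least abundant of the 10 genes, with 62 to 142 counts per library. Rcan1 had 3.94, 5.36 and 5.90 CPM in stimulated Mirc11-/- libraries, against 5.08, 3.91 and 3.98 CPM in unstimulated Mirc11-/- libraries. In wild-type cells it had 5.26, 6.78 and 5.33 CPM with stimulation, against 4.36, 4.51 and 5.69 CPM without. All groups overlapped. The change was 0.23 log2 in Mirc11-/- cells (95% interval -0.20 to 0.65, adjusted p = 0.368) and 0.25 log2 in wild-type cells (-0.15 to 0.66, adjusted p = 0.338). These intervals hold both no change and a rise of 0.65 log2. The count is of the whole gene and does not separate its isoforms.

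RefSeq on GRCm38.p6 gives Rcan1 a pair of starts, and the windows of 300 bases around them (250 before and 50 after) differ in NFAT core letters. GGAAA or its reverse complement TTTCC occurred 3 times in the window at the inner start and 0 times in that at the outer start. The stretches are shown, with the matches in capitals, because the data bear on a gene known as an NFAT target; all are read 5′ to 3′ on the minus strand of chromosome 16.
Rcan1 inner start, 92400289 to 92400317: accttagcgcctTTTCCaccctcccgagc
Rcan1 inner start, 92400255 to 92400283: taattagcatagGGAAAatgactaaggtg
Rcan1 inner start, 92400225 to 92400253: tgacgtcacctcTTTCCagtagaaattta

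At least 1 such match on either strand is found in 61.3% of 32851 windows of this length, and 3 or more in 9.42%. GGAAA contains the GGAA core shared by ETS factors, so the letters do not point to NFAT alone. The window at the outer Nfatc2 start held 3 matches and the inner one 1, Ppp3cb held 4, Nfat5 2 and Nfatc3 1 in one window and 0 in the other. Windows of Orai1, Stim1 and Stim2, the genes that rose, held 0, which says only that these letters are not in those windows. Nfatc1 and Ppp3ca were not searched.

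Among the NFAT factors regulated by calcineurin, only Nfatc2 passed the test on stimulation. Nfatc2 (ENSMUSG00000027544, chr2:168476410-168601657) encodes NFAT1, the form already present in resting lymphocytes. It had 30.1, 12.8 and 16.5 CPM in stimulated Mirc11-/- libraries, against 73.3, 60.1 and 61.3 CPM in unstimulated Mirc11-/- libraries. Wild-type libraries had 15.8, 18.7 and 16.5 CPM with stimulation, against 66.6, 59.7 and 75.4 CPM without. Every stimulated library lay far below every unstimulated one, with replicate 1 of the stimulated Mirc11-/- group the highest of the stimulated libraries. Nfatc2 fell by 1.71 ± 0.25 log2 in Mirc11-/- cells (3.28-fold, adjusted p = 0.000251) and by 1.98 ± 0.25 log2 in wild-type cells (3.96-fold, adjusted p = 0.000158). Without replicate 1 of the stimulated Mirc11-/- group the fall in Mirc11-/- cells was 2.14 log2 (adjusted p = 1.67e-07).

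The outer start of Nfatc2 is shown in the same way, since Nfatc2 had the widest range of group means of the 10 genes (1.97 log2). These stretches are on the minus strand of chromosome 2.
Nfatc2 outer start, 168601880 to 168601907: tgaagttttcaGGAAAgcccttagtttt
Nfatc2 outer start, 168601841 to 168601869: gggatccaggggTTTCCatggcgctgagt
Nfatc2 outer start, 168601816 to 168601844: gagtaaacaggaGGAAAcagtgagggaat

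Nfatc3 (ENSMUSG00000031902, chr8:106058840-106130537), which encodes NFAT4, had the steadiest level of the family. It ranged from 185.4 to 189.8 CPM in stimulated Mirc11-/- libraries, against 184.9 to 190.8 CPM in unstimulated Mirc11-/- libraries. Wild-type libraries ranged from 171.8 to 190.0 CPM with stimulation, against 180.1 to 195.8 CPM without. The groups overlapped, and the interval of the change was -0.16 to 0.16 log2 in Mirc11-/- cells and -0.22 to 0.10 log2 in wild-type cells, so a change beyond 0.22 log2 in either direction lies outside both. Esrp2, on the opposite strand, shares exon sequence with Nfatc3 and had 57 to 131 counts per library (3.33 to 6.09 CPM).

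Nfatc1 (ENSMUSG00000033016) encodes NFAT2, whose short form is induced after antigen receptor signals in T and B cells. It had 141.3, 112.0 and 110.0 CPM in stimulated Mirc11-/- libraries, against 120.5, 114.0 and 110.4 CPM in unstimulated Mirc11-/- libraries. In wild-type cells it had 111.2, 96.0 and 112.6 CPM with stimulation, against 115.4, 103.7 and 120.2 CPM without. The groups overlapped in both genotypes. The change was 0.075 log2 in Mirc11-/- cells (95% interval -0.15 to 0.30, adjusted p = 0.588) and -0.085 log2 in wild-type cells (-0.31 to 0.14, adjusted p = 0.573). The Mirc11-/- value turned to -0.047 log2 without replicate 1 of the stimulated group.

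As a share of the summed CPM per kilobase of these 3 factors, Nfatc2 made up 5.36% ± 1.93 in stimulated and 16.3% ± 1.22 in unstimulated Mirc11-/- cells, and 5.15% ± 0.768 in stimulated and 16.9% ± 1.48 in unstimulated wild-type cells (SD, n = 3 each). Nfatc1 and Nfatc3 held the rest, at 47.4% and 47.3% in stimulated and 40.9% and 42.8% in unstimulated Mirc11-/- cells, and at 45.4% and 49.4% in stimulated and 40.2% and 42.9% in unstimulated wild-type cells. In stimulated wild-type cells every library had the larger share in Nfatc3. Nfatc4, the remaining calcineurin-dependent factor, had 25 counts over all 12 libraries and was not tested.

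Nfat5 (ENSMUSG00000003847, chr8:107293470-107379517) encodes the factor that responds to hypertonic stress and is not regulated by calcineurin. It had 196.0, 102.3 and 106.3 CPM in stimulated Mirc11-/- libraries, against 109.8, 103.9 and 90.1 CPM in unstimulated Mirc11-/- libraries. Wild-type libraries had 118.7, 130.2 and 122.7 CPM with stimulation, against 118.8, 113.9 and 129.2 CPM without. A single library, replicate 1 of the stimulated Mirc11-/- group, was far above the other 11. Stimulation gave 0.41 ± 0.20 log2 in Mirc11-/- cells (adjusted p = 0.111) and 0.038 ± 0.20 log2 in wild-type cells (adjusted p = 0.910). Without that library the Mirc11-/- value was 0.046 log2 (adjusted p = 0.706), and with it but without replicate 2 or 3 of the same group it was 0.56 and 0.55 log2 (adjusted p = 0.0298 and 0.0463).

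That library was an extreme of its group for each of the 10 genes. Beside Nfat5, it was the highest for Nfatc1, Nfatc2, Nfatc3 and Stim2. It was the lowest for Orai1, Rcan1, Ppp3ca, Ppp3cb and Stim1. Some of these gaps were small, as for Nfatc3 (189.8 and 189.5 CPM in replicates 1 and 3). Replicate 1 also had the highest summed level of 548 vomeronasal receptor genes, which NK cells are not known to use: 85.1 CPM, against 49.0 and 59.0 CPM in the other stimulated Mirc11-/- libraries. The sum was 14.6 to 16.95 CPM in unstimulated Mirc11-/- libraries, 24.8 to 41.5 CPM in stimulated wild-type libraries and 13.6 to 17.3 CPM in unstimulated wild-type libraries. Genes with any count numbered 31320 to 34972 in stimulated and 22510 to 23657 in unstimulated Mirc11-/- libraries. In wild-type libraries they numbered 28067 to 31773 with stimulation and 22790 to 24175 without. The sum did not overlap between stimulated and unstimulated libraries of either genotype, or between the stimulated groups. A fit with it as a covariate can thus not cleanly separate it from treatment or genotype, and its errors are wider. For stimulation in Mirc11-/- cells the SE went from 0.11 to 0.26 log2 for Nfatc1 and from 0.072 to 0.20 log2 for Ppp3ca. The cause of a lost call was not tested. With the log2 of this sum as a covariate, Orai1 alone of the 5 called members kept its call in Mirc11-/- cells (2.38 log2, adjusted p = 0.00219). There Nfatc2 was at -3.07 log2 (adjusted p = 0.0507), Stim2 at 0.76 (0.0815), Ppp3cb at -0.46 (0.280) and Stim1 lost its call at an adjusted p of 0.824. In wild-type cells Nfatc2, Orai1, Stim2 and Ppp3cb kept theirs (highest adjusted p = 0.0356) and Stim1 did not (adjusted p = 0.310). Leaving that library out instead, the same 5 genes were called in Mirc11-/- cells.

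Markers of other cell types also moved with treatment, and their part in the changes of the 10 genes was not tested. The summed level of 7 B cell markers was 103 to 115 CPM in stimulated and 64.5 to 73.5 CPM in unstimulated Mirc11-/- libraries, and 105 to 129 CPM in stimulated and 57.5 to 72.1 CPM in unstimulated wild-type libraries, with Pax5 at 0 in the last group. Nearly all of it was Ighm, at a mean of 102.4 and 65.3 CPM in stimulated and unstimulated Mirc11-/- cells and 111.6 and 61.2 CPM in stimulated and unstimulated wild-type cells. The 6 markers of neutrophils and mast cells summed to 69.5 to 109 CPM in stimulated and 15.9 to 27.2 CPM in unstimulated Mirc11-/- libraries, and 69.7 to 105 CPM in stimulated and 26.4 to 30.4 CPM in unstimulated wild-type libraries; S100a8 and S100a9 were at 0 in both unstimulated groups and S100a9 also in stimulated wild-type cells. The difference lay in Kit, at a mean of 82.7 and 15.7 CPM in stimulated and unstimulated Mirc11-/- cells and 83.98 and 21.96 CPM in stimulated and unstimulated wild-type cells, while Ly6g had lower means with stimulation in both genotypes (0.634 and 1.13 CPM, and 1.08 and 1.52 CPM). The 9 T cell markers summed to between 163 and 268 CPM, mostly Cd28 (means of 147.4 to 179 CPM). Among the others, Cd3d, Cd3e and Cd3g had lower means with stimulation in Mirc11-/- cells (23.19 and 24.76, 14.69 and 15.55, and 24.83 and 26.94 CPM in stimulated and unstimulated cells). In wild-type cells they averaged 17.48 and 16.46, 8.51 and 10.67, and 19.16 and 18.13 CPM. Cd4, Cd5 and Cd8b1 had higher means with stimulation in both genotypes, at 2.13 CPM or less. Cd6 averaged 4.35 and 0.271 CPM in stimulated and unstimulated Mirc11-/- cells and 2.19 and 0.179 CPM in stimulated and unstimulated wild-type cells. Cd8a averaged 3.06 CPM in stimulated Mirc11-/- and 1.55 CPM in stimulated wild-type cells, and 3.12 CPM in unstimulated Mirc11-/- and 1.47 CPM in unstimulated wild-type cells. The 7 macrophage and monocyte markers summed to between 2.33 and 9.99 CPM in all libraries. The sum of the 7 dendritic cell markers differed by genotype, at 159 to 195 CPM in stimulated and 191 to 207 CPM in unstimulated Mirc11-/- libraries, against 88.4 to 132 CPM in stimulated and 77.5 to 131 CPM in unstimulated wild-type libraries. That difference lay in Itgax, at a mean of 147.1 CPM in stimulated Mirc11-/- and 76.3 CPM in stimulated wild-type cells, and 183.4 CPM in unstimulated Mirc11-/- and 82.8 CPM in unstimulated wild-type cells. Zbtb46 was instead higher in both stimulated groups (19.3 and 21.5 CPM) than in the unstimulated ones (8.37 and 8.56 CPM), and H2-Ab1 had lower means in Mirc11-/- cells (1.05 CPM stimulated and 0.403 CPM unstimulated) than in wild-type cells (1.53 CPM stimulated and 1.07 CPM unstimulated). The 6 erythroid and platelet markers did not exceed 2.77 CPM.

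**Figure D3:**
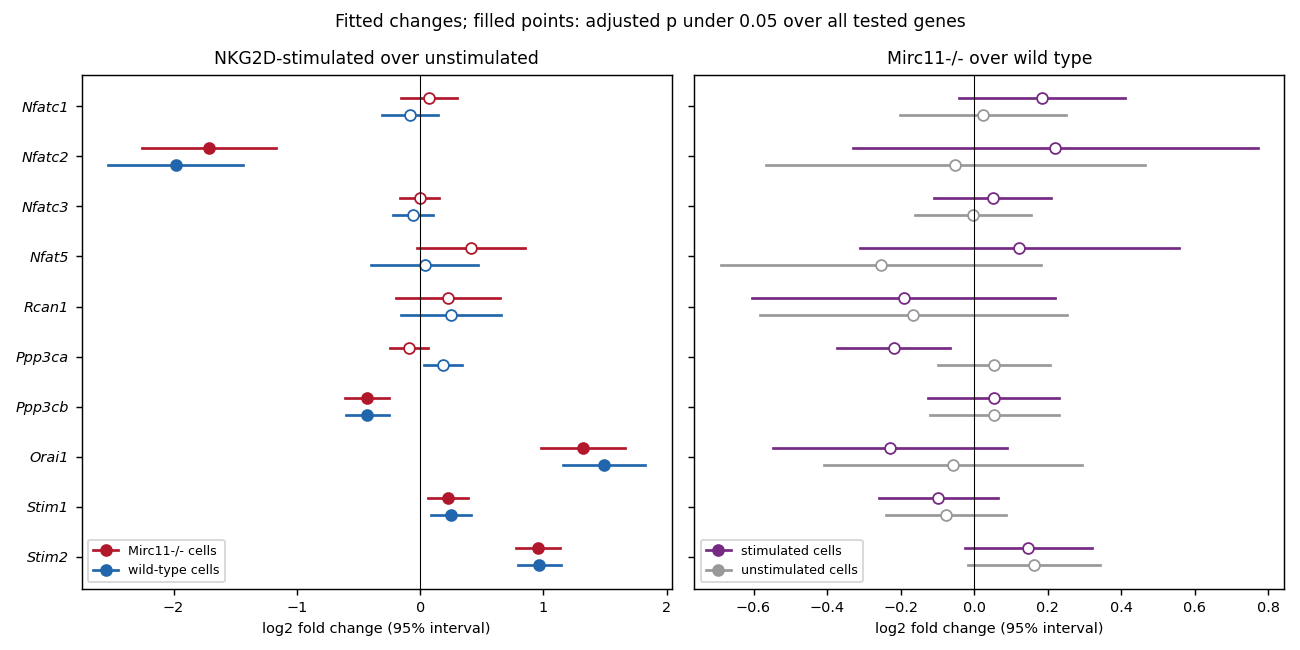
Log2 fold change of the 10 genes with its 95% interval; left, stimulated over unstimulated in Mirc11-/- (red) and wild-type cells (blue), right, Mirc11-/- over wild type in stimulated (purple) and unstimulated cells (grey), with filled points for an adjusted p under 0.05 over all tested genes. Nfatc2, Ppp3cb, Orai1, Stim1 and Stim2 are filled on the left for both genotypes and no point is filled on the right.

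Loss of the microRNA cluster left none of the 10 genes past the threshold, with or without stimulation. In unstimulated cells 0 of 10 were called by edgeR and 0 had an unadjusted p under 0.05, beside 1.11% of all tested genes called and 1607 of 17457 with such an unadjusted p. The changes ran from -0.25 log2 for Nfat5 to 0.16 log2 for Stim2, with a lowest adjusted p of 0.626, and their median was -0.027 log2. Nfat5, which holds a match to the seeds of miR-23a and miR-27a, was lower in every unstimulated Mirc11-/- library than in any unstimulated wild-type one (95% interval -0.69 to 0.18 log2, adjusted p = 0.836). The share of all tested genes that separate in this way was not counted, so that order is not read as a difference. Stim2, with a match to the miR-27a seed, had 20.0 ± 0.880 CPM in unstimulated Mirc11-/- and 17.9 ± 1.31 CPM in unstimulated wild-type cells (SD, n = 3 each; interval -0.017 to 0.34 log2).

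In stimulated cells 0 of 10 were again called by edgeR, and 1 had an unadjusted p under 0.05. Of all tested genes, 3.89% and 5.13% were called higher and lower in Mirc11-/- cells, and 5257 of 17457 had such an unadjusted p. The changes ran from -0.23 log2 for Orai1 to 0.22 log2 for Nfatc2, with a median of 0.052 log2. Ppp3ca averaged 77.9 ± 3.28 CPM in stimulated Mirc11-/- and 90.7 ± 2.03 CPM in stimulated wild-type cells (SD, n = 3 each), with no overlap. That difference was -0.22 ± 0.071 log2 (95% interval -0.37 to -0.066, unadjusted p = 0.00846, adjusted p = 0.0661), and DESeq2 called it at an adjusted p of 0.0209. Stim1 was lower and Stim2 higher in every stimulated Mirc11-/- library than in any stimulated wild-type one, by -0.098 log2 (adjusted p = 0.387) and 0.15 log2 (adjusted p = 0.228). How many of all tested genes separate in this way was not counted. The lack of overlap for Ppp3ca, Stim1 and Stim2 is therefore not read as a result about the members. Nfatc2 and Nfat5 were 0.22 and 0.12 log2 higher in stimulated Mirc11-/- cells, and without replicate 1 of that group they were at -0.21 and -0.25 log2.

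The difference between the responses of the 2 genotypes was tested directly as an interaction. None of the 10 genes was called by edgeR, beside 2 of 17457 genes in all (0.0115%), and 1858 genes including 1 of the 10 had an unadjusted p under 0.05. DESeq2 and limma voom also called 0 of the 10. Ppp3ca had the lowest p, with an interaction of -0.27 ± 0.10 log2 (unadjusted p = 0.0172, adjusted p = 0.445). For Nfatc2 it was 0.27 log2 (95% interval -0.48 to 1.03), for Orai1 -0.17 (-0.64 to 0.30), for Stim2 -0.015 (-0.26 to 0.23) and for Stim1 -0.021 (-0.25 to 0.21). A difference in response of up to 0.26 log2 in the store sensors, and of up to 1.03 log2 in Nfatc2, is thus inside what these libraries allow.

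The order of levels can be read only per kilobase of exon, and it depends on the merged exon lengths used. In stimulated Mirc11-/- cells the means were 16.2 CPM per kilobase for Nfatc1, 16.1 for Nfatc3, 7.81 for Ppp3ca, 7.55 for Stim2, 7.34 for Nfat5, 6.41 for Ppp3cb, 6.10 for Orai1, 4.95 for Stim1, 1.87 for Nfatc2 and 1.64 for Rcan1. In unstimulated wild-type cells they were 16.1 for Nfatc3, 15.1 for Nfatc1, 8.31 for Ppp3cb, 7.99 for Ppp3ca, 6.56 for Nfat5, 6.35 for Nfatc2, 4.46 for Stim1, 3.48 for Stim2, 2.55 for Orai1 and 1.57 for Rcan1. Neighbours closer than the larger of their SDs over 3 libraries were Nfatc1 and Nfatc3 in both of these groups. In stimulated Mirc11-/- cells the same held for each step from Ppp3ca to Orai1 and for Nfatc2 and Rcan1, and in unstimulated wild-type cells for Ppp3cb and Ppp3ca and for Nfat5 and Nfatc2. Over all 12 libraries Nfatc3 and Nfatc1 stood at percentiles 86.6 and 86 of the level per kilobase of 17401 tested genes, the calcineurin genes, Nfat5, the STIM genes, Orai1 and Nfatc2 between 57.8 and 74.6, and Rcan1 at 39.3.

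The genes with the most similar pattern over the 12 libraries were looked up for the 4 members with the widest range of group means, by Pearson's r of log2 CPM among 9761 genes. For Nfatc2 they were Wnk1, Xpo6 and Rin3 (r = 0.991, 0.990 and 0.989), and for Orai1 they were Wdr48, Relb and Hacd3 (r = 0.991, 0.987 and 0.987). Stim2 was most like Bcl6, Lztfl1 and Trp53inp1 (r = 0.996, 0.993 and 0.991), and Ppp3cb was most like Ythdc2, Hdac1 and Gstcd (r = 0.980, 0.977 and 0.977). The libraries fall into a stimulated and an unstimulated set, and a gene that differs between these sets will give a high r.

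Other genes of the pathway were described by lists chosen with earlier results of these data known. Of 10 tested genes for calcineurin subunits, its inhibitors and partners and calmodulin, 7 fell and 0 rose with stimulation in Mirc11-/- cells, and 2 fell and 0 rose in wild-type cells, with medians of -0.48 and -0.20 log2. Of all tested genes 22.1% fell in Mirc11-/- and 15.7% in wild-type cells, so the wild-type count is near its background. More genes were called in Mirc11-/- cells in either direction (45.6% against 31.8%), so 7 against 2 is not read as a genotype effect. Fkbp1a, the binding protein of the drug FK506, fell by 1.01 log2 in Mirc11-/- cells (adjusted p = 7.72e-06) and by 1.12 log2 in wild-type cells (adjusted p = 4.2e-06). Ppp3r1, the regulatory subunit of calcineurin, fell by 0.46 and by 0.42 log2 (adjusted p = 0.00259 and 0.00675). Ppp3cc, the gamma catalytic subunit, fell by 0.50 log2 in Mirc11-/- cells (adjusted p = 0.00169), where Ppia, Akap5 and Calm3 were also called. In wild-type cells these 4 were not called, and no gene of this list was called in the interaction. With the vomeronasal sum as a covariate, 0 of the 7 calls in Mirc11-/- cells remained, and Ppp3cc, Ppp3r1, Calm3 and Ppia took a positive sign.

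Of 9 tested NFAT kinases and regulators, 3 rose and 3 fell in Mirc11-/- cells and 3 rose and 2 fell in wild-type cells, and with the vomeronasal sum as a covariate 0 were called in Mirc11-/- cells in place of 6. Without it, 45.6% of all tested genes were called in Mirc11-/- and 31.8% in wild-type cells, and counts of so few genes are not read as a result about the list. Gsk3b, which phosphorylates NFAT for export, had 75.2 CPM in stimulated and 105.2 CPM in unstimulated Mirc11-/- cells, and 78.6 CPM in stimulated and 116.5 CPM in unstimulated wild-type cells (-0.48 and -0.57 log2, adjusted p = 0.000468 and 0.000223). Dyrk2, another NFAT kinase, rose by 0.28 and by 0.43 log2 (adjusted p = 0.00462 and 0.000361). Lrrk2 and Homer2 also rose, both at levels near the limit of counting. Lrrk2 averaged 1.76 CPM in stimulated and 0.221 CPM in unstimulated Mirc11-/- cells, and 0.756 CPM in stimulated and 0.0974 CPM in unstimulated wild-type cells. Homer2 did not exceed a mean of 0.918 CPM in any group. Stimulated libraries held counts from more genes than unstimulated ones, as given above, and the part of this in the rises of Lrrk2 and Homer2 was not tested.

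Of 20 tested genes for calcium entry, release and clearance, 3 rose and 7 fell in Mirc11-/- cells and 3 rose and 5 fell in wild-type cells, with medians of -0.10 and -0.11 log2. Over all tested genes 23.5% rose and 22.1% fell in Mirc11-/- cells, and 16.1% rose and 15.7% fell in wild-type cells, so these counts are not a result about the list. With the vomeronasal sum as a covariate the list held 1 call in Mirc11-/- cells in place of 10, and 8 as before in wild-type cells. Both SERCA pumps, which return calcium to the store, were among those that fell. Atp2a3 averaged 76.2 CPM in stimulated and 175.8 CPM in unstimulated Mirc11-/- cells, and 98.2 CPM in stimulated and 161.2 CPM in unstimulated wild-type cells (-1.21 and -0.72 log2, adjusted p = 1.33e-07 and 1.86e-05). Atp2a2 fell by 1.19 and by 0.90 log2 (adjusted p = 1.44e-06 and 2.38e-05), and Mcu, the mitochondrial calcium uniporter, by 0.84 and by 0.69 log2 (adjusted p = 0.000117 and 0.000704). Orai2, a relative of Orai1, rose by 0.51 and by 0.65 log2 (adjusted p = 0.000357 and 9.2e-05), while Orai3 was not called in either genotype. Between genotypes, Kcna3, a potassium channel that sustains calcium entry in T cells, was 0.81 log2 higher in unstimulated Mirc11-/- cells (adjusted p = 0.0287); leaving out any library of either unstimulated group but replicate 2 of the wild type ended that call (adjusted p = 0.0561 to 0.184). Atp2a2, Atp2a3 and Plcg2, a phospholipase that releases store calcium, were lower in stimulated Mirc11-/- cells, by -0.44, -0.36 and -0.30 log2 (adjusted p = 0.0224, 0.0154 and 0.0365). None of the 3 passed without replicate 2 or without replicate 3 of stimulated wild-type cells (adjusted p = 0.0573 to 0.121), and Plcg2 also did not without replicate 1 or 3 of stimulated Mirc11-/- cells (0.0712 and 0.0555). All 3 calls also ended with the vomeronasal covariate (0.951 for Atp2a2 and Atp2a3, 0.954 for Plcg2) and in the 6 stimulated libraries alone (0.110, 0.101 and 0.152).

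**Figure D4:**
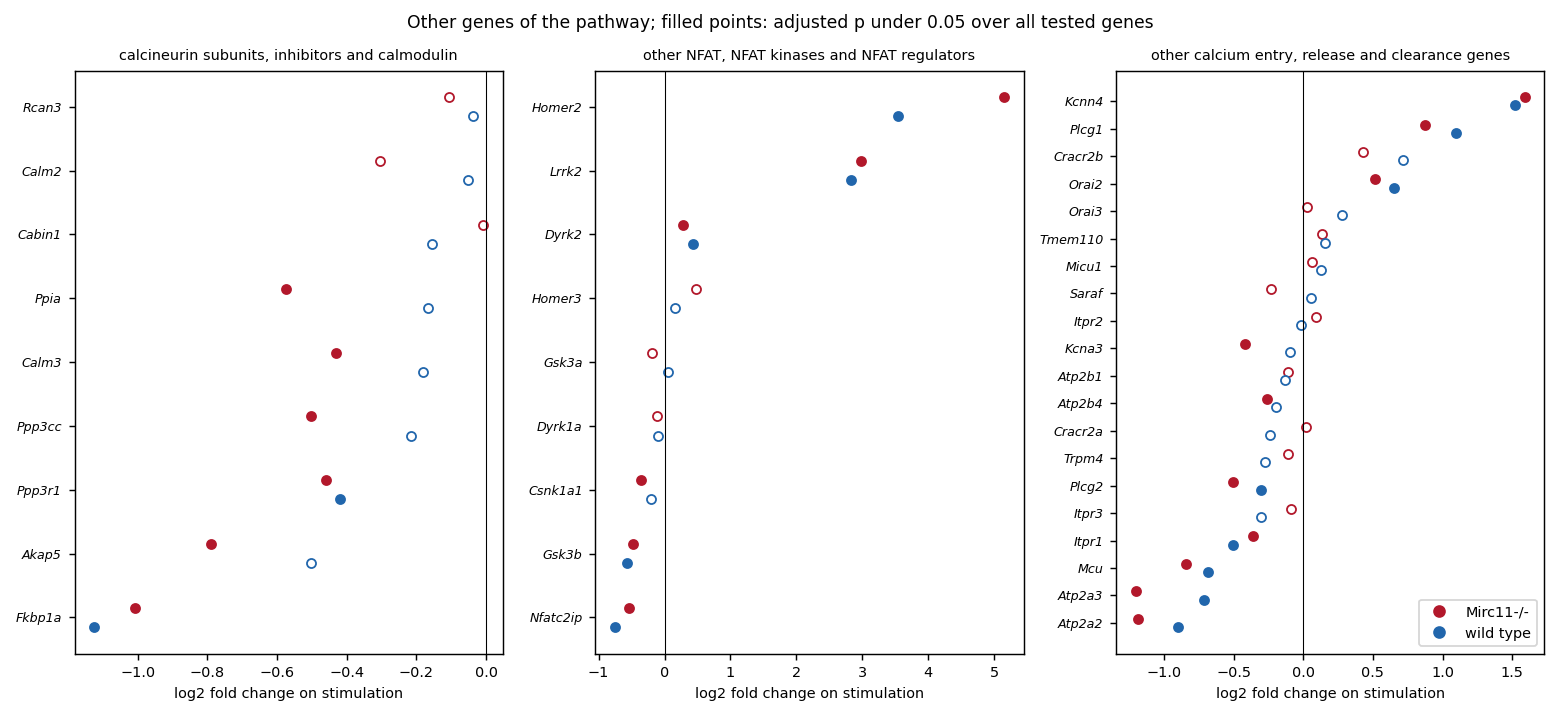
Log2 fold change on stimulation of genes of 3 pathway lists (9 of the 10 tested genes in the left panel, all tested genes in the others) in Mirc11-/- (red) and wild-type cells (blue), 1 row per gene and 1 panel per list with its own x axis, with filled points for an adjusted p under 0.05 over all tested genes. In the left panel all genes lie left of 0 and more red than blue points are filled (6 against 2), and in the right panel the calcium pumps Atp2a2 and Atp2a3 lie lowest in Mirc11-/- cells. Of all tested genes 45.6% were called in Mirc11-/- and 31.8% in wild-type cells.

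In a list chosen with earlier results of these data known, genes described as NFAT targets in lymphocytes rose more often than they fell. Of 20 tested, 12 rose and 3 fell with stimulation in Mirc11-/- cells and 17 rose and 1 fell in wild-type cells, with medians of 0.61 and 1.87 log2. The shares of all tested genes were 23.5% higher and 22.1% lower in Mirc11-/- cells and 16.1% and 15.7% in wild-type cells. Their medians were 0.032 and 0.021 log2. Irf4, a transcription factor, averaged 29.6 CPM in stimulated and 9.63 CPM in unstimulated Mirc11-/- cells, and 56.3 CPM in stimulated and 8.32 CPM in unstimulated wild-type cells. The orphan receptor gene Nr4a1 averaged 32.7 CPM in stimulated and 11.4 CPM in unstimulated Mirc11-/- cells, and 38.2 CPM in stimulated and 9.44 CPM in unstimulated wild-type cells. Rcan1, itself described as such a target, was not part of this list and was not called in either genotype. In stimulated cells 10 of the 20 were lower in Mirc11-/- than in wild-type cells and 0 were higher (median -0.72 log2), beside 5.13% lower and 3.89% higher of all tested genes. With the vomeronasal sum as a covariate, 1 gene of the list was called in this contrast in place of 10, and 6 were called in place of 15 for stimulation in Mirc11-/- cells. Without the covariate, the interaction called Ccl3 and Ifng, the only genes it called; with the covariate neither was called (adjusted p = 0.347 and 0.225). Both calls also ended without replicate 3 of stimulated or replicate 2 or 3 of unstimulated Mirc11-/- cells, replicate 2 or 3 of stimulated or any replicate of unstimulated wild-type cells (adjusted p = 0.0516 to 0.147). In unstimulated cells 1 of the 20, Havcr2, was lower in Mirc11-/- cells (-0.74 log2, adjusted p = 0.0224), a call that leaving out any library of either group but replicate 3 of the wild type ended (adjusted p = 0.0579 to 0.161). Many of these genes also answer to NF-kB or AP-1.

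Of 6 tested osmotic target genes of NFAT5, 3 rose and 2 fell with stimulation in Mirc11-/- cells and 2 rose and 1 fell in wild-type cells. Beside this, 45.6% of all tested genes were called in Mirc11-/- and 31.8% in wild-type cells, and counts of so few genes are not read as a result about the list. Slc5a3, the inositol transporter, rose by 1.10 and by 0.81 log2 (adjusted p = 1.51e-05 and 0.000239) and Hspa4l by 0.81 and by 0.72 log2 (adjusted p = 1.19e-05 and 5.13e-05). Slc38a2, an amino acid transporter, fell by 0.997 and by 0.72 log2 (adjusted p = 3.05e-07 and 7.1e-06), and it was 0.33 log2 lower in stimulated Mirc11-/- than in stimulated wild-type cells (adjusted p = 0.0161; not called without replicate 2 or 3 of stimulated wild-type cells, at 0.0718 and 0.0759, in the 6 stimulated libraries alone, at 0.115, or with the vomeronasal covariate, at 0.951). With that covariate the list held 2 calls in place of 5 for stimulation in Mirc11-/- cells. The list thus held calls in both directions while Nfat5 itself was not called.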

How the data were processed

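Polyadenylated RNA from IL-2-expanded splenic NK cells was sequenced in 12 libraries, 3 for each of 4 groups, with TruSeq libraries per the labels. The submitters' processing notes name RSEM 1.3.0, Bowtie2 2.2.8, Trim Galore 0.4.1 and bcl2fastq, and GRCm38 as the genome. The deposited table holds the authors' RSEM expected counts per gene, already whole numbers and not scaled between libraries. The annotation release and the strand setting are not given in the sources used here.

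In edgeR 4.0.16 (R 4.3.3), low genes were removed with filterByExpr by group, TMM scaling was applied, and 1 mean per group was fitted over all 12 libraries with glmQLFit (robust) and tested with glmQLFTest. The contrasts were stimulation within each genotype, Mirc11-/- minus wild type within each treatment, and the interaction. P values are two-sided, with Benjamini-Hochberg adjustment across the 17457 genes in the fit and a call under 0.05; p values given beside an "adjusted p" are of this test unless DESeq2 is named. Errors of changes are standard errors of the fit, and 95% intervals use its t distribution. Levels are CPM on TMM-scaled totals; levels per kilobase use the merged exons of GENCODE vM21, which gave a length for 17401 tested genes. P values measure only the spread between these libraries. The share of all tested genes whose groups do not overlap was not counted, so a lack of overlap is a description only. The fit was also run on counts simulated from the levels and spread of these libraries, with changes placed in the stimulated wild-type group only.

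The 10 genes and all lists were chosen with earlier results of these data known. All 10 members are named, and genes of the lists were drawn from the up to 4 called genes with the smallest p per contrast, not all of them printed; Orai3, Akap5 and a few others were named after their values were seen, and some genes of the lists are not reported here by name. Alternatives were DESeq2 size factors, library totals alone, no filter, a stricter filter (minimum count 50), DESeq2 1.42.0, limma 3.58.1 voom, a non-robust fit, the 6 libraries compared, a replicate block, the log2 vomeronasal sum as a covariate, and leaving out each library.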

Additional observations from a re-analysis of the deposited data

How the results depend on the processing

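In the stimulation contrasts, Orai1 kept its call in all 17 settings in both genotypes, as did Nfatc2, Stim2 and Ppp3cb in wild-type cells; in Mirc11-/- cells these 3 lost it under the vomeronasal covariate alone, and Stim1 lost it in 7 of 17 settings in each. No alternative moved the median of all tested genes by over 0.1 log2. The causes of the changes below were not tested, beyond the fewer libraries, genes or residual degrees of freedom that a setting has by construction. The vomeronasal covariate also differs between treatments without overlap, so by construction its fit has wider errors for the stimulation contrasts. Precision is limited by 3 libraries per group and, for Rcan1, by its low count.

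With the covariate, 1 of the 10 genes (5 without it) and 558 of all genes (7958) were called for stimulation in Mirc11-/- cells, 30 (1575) for genotype in stimulated cells and 0 (2) in the interaction. Signs reversed there, in log2, for stimulation in Mirc11-/- cells to -0.49 for Nfatc1, -0.73 for Nfat5, 0.00081 for Ppp3ca, 0.071 for Ppp3cc, 0.13 for Ppp3r1, 0.50 for Calm3, 0.39 for Ppia, 0.0097 for Mcu, 0.38 for Havcr2 and 0.29 for Akr1b3. They reversed to -0.50 for Nfat5 on stimulation in wild-type cells. For genotype in stimulated cells they reversed to -0.12 for Nfatc1, -0.54 for Nfatc2, -0.52 for Nfat5, 0.13 for Rcan1 and 0.34 for Orai1, and in the interaction to -0.12 for Nfatc1, -0.45 for Nfatc2, -0.23 for Nfat5, 0.28 for Rcan1 and 0.36 for Orai1. Of 27 list genes called for stimulation in Mirc11-/- cells and refitted one by one, not all of them named here, 7 kept their call, 13 lost it and 7 reversed.

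Other reversals were of values near 0. With no filter, Nfatc1 was at -0.031 and Nfat5 at -0.00078 for stimulation in Mirc11-/- and wild-type cells, Nfatc1 at -0.0031 for genotype without stimulation, Nfatc3 at -0.034 and Ppp3cb at -0.030 for genotype with it, and Nfatc3 at -0.0045 in the interaction. With the stricter filter, Nfatc3 was at 0.084 for stimulation in Mirc11-/- cells and 0.0028 for genotype without stimulation, and the interaction was 0.032 for Rcan1, 0.060 for Ppp3cb, 0.040 for Stim1 and 0.047 for Stim2. With library totals alone, Nfat5 was at -0.030 for stimulation in wild-type cells, and the interaction was 0.047 for Rcan1, 0.066 for Ppp3cb, 0.049 for Stim1 and 0.052 for Stim2.

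Counts over all genes for genotype without stimulation (193) were 382 in DESeq2 and 299 in the 6 libraries alone; for genotype with it (1575), 208 in the 6 libraries alone. In DESeq2, 1 of the 10 genes, Ppp3ca, was called for genotype with stimulation. The interaction (2) had 47 calls with no filter, 4 with the stricter filter and 63 in DESeq2. Of the 10 genes, 1 held an 8-base and 9 a 6-base seed match, against 3 with a 7-base match.

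Leaving out 1 library gave 72 to 149 calls for genotype without stimulation, 337 to 2397 with it and 0 to 19 in the interaction. For stimulation, Nfatc1 ran from -0.047 to 0.13 in Mirc11-/- and Nfat5 from -0.0093 to 0.081 in wild-type cells. For genotype without stimulation, Nfatc1 ran from -0.035 to 0.069, Nfatc2 from -0.16 to 0.038, Nfatc3 from -0.039 to 0.021, Ppp3cb from -0.016 to 0.11 and Orai1 from -0.13 to 0.012. With stimulation, Nfatc2 ran from -0.21 to 0.45 and Nfat5 from -0.25 to 0.28. In the interaction, Nfatc2 ran from -0.15 to 0.50, Rcan1 from -0.17 to 0.14, Ppp3cb from -0.066 to 0.063, Stim1 from -0.071 to 0.024 and Stim2 from -0.084 to 0.025.

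Same-numbered libraries deviated with correlations of 0.093 to 0.23 between the wild-type groups, where every stimulated library correlated best with the unstimulated one of its own number, a hint from the data and not the design, and of -0.065 to 0.14 between the Mirc11-/- groups, where not every one did. Between genotypes the correlations ran from -0.15 to 0.22. The labels do not say what a number marks, and as not every correlation exceeded 0.1, the numbers were not taken to pair the samples. With the replicate number as a replicate block, 5 of the 10 genes were called for stimulation in each genotype and 0 in the other contrasts; within genotype, the replicate block gave 13 interaction calls over all genes.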

Other observations

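Genes that act around the store showed calls in both directions, and those given here were picked after their values were seen. Kcnn4, the calcium-activated potassium channel that keeps the driving force for calcium entry, averaged 14.8 CPM in stimulated and 4.89 CPM in unstimulated Mirc11-/- cells, and 15.5 CPM in stimulated and 5.497 CPM in unstimulated wild-type cells (1.59 and 1.52 log2, edgeR adjusted p = 0.00452 and 0.0076). Plcg1, a phospholipase that makes the signal for store release, rose by 0.87 and by 1.10 log2 at a low level (at most 3.33 CPM; adjusted p = 0.0414 and 0.0303). Itpr1, the store release channel, fell by 0.36 and by 0.51 log2 (adjusted p = 0.0153 and 0.00316). Kcnn4, Plcg1 and Itpr1 belong to the list of calcium entry, release and clearance genes. With the vomeronasal sum as a covariate, that list held 1 call in Mirc11-/- cells in place of 10. The call kept was Atp2a3, so those of Kcnn4, Plcg1 and Itpr1 in Mirc11-/- cells ended. Leaving out 1 library gave the list 7 to 8 calls in Mirc11-/- cells, and 7 to 9 in place of 8 in wild-type cells. Saraf, which slows store-operated entry, had 119.9 CPM in stimulated and 140.6 CPM in unstimulated Mirc11-/- cells, and 140.4 CPM in stimulated and 135.3 CPM in unstimulated wild-type cells, and was not called in either genotype.

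The spread between replicates also differed among the NFAT, calcineurin and calcium entry genes. In stimulated Mirc11-/- cells the coefficient of variation was 46.1% for Nfatc2 and 39.3% for Nfat5, with replicate 1 the highest for both, and 1.26% for Stim2 and 1.32% for Nfatc3. In stimulated wild-type cells it was 8.67% for Nfatc2, 4.70% for Nfat5, 5.77% for Stim2 and 5.07% for Nfatc3.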
